A study of Mus musculus with 24 samples.

Results

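The 7 genes described here encode the enzymes of the pentose phosphate pathway: G6pdx, Pgls, Pgd, Rpia, Rpe, Tkt and Taldo1. They were taken by gene symbol from the platform annotation of a microarray time course of single mouse oocytes and 1-cell embryos. Of the 7 genes, 6 had a probe, with 10 probes between them, out of 19532 genes and 41174 probes in all. G6pdx, which encodes the entry enzyme of the pathway, had no probe under that symbol and was not analysed here. The genes were chosen by the steep fall of the Taldo1 intensity between 0 h and 8 h, so the 8 h values, and every Taldo1 value set against 0 h, are given as a description with no test.

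The pathway branches from glycolysis at glucose 6-phosphate. Its oxidative branch makes NADPH, the reducing agent that glutathione and thioredoxin reductases and fatty acid synthesis use, and ends in a pentose phosphate. Its non-oxidative branch interconverts pentose phosphates with glycolytic sugar phosphates, and so can supply the ribose 5-phosphate from which nucleotides are built. In mammalian oocytes the pathway is known for its link to meiotic resumption and to protection against oxidation.

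Messenger RNA was measured in 24 single cells, each on its own array. At 0 h the cells were 3 MII oocytes, which are arrested in the second meiotic division and had received no sperm. The other 21 cells were embryos at the 1-cell stage after a sperm had been placed in the oocyte by needle (intracytoplasmic sperm injection, ICSI). There were 3 at 2 h after injection, 4 at 4 h, 3 each at 6 h and 8 h, and 4 each at 10 h and 12 h. All cells carry the strain label B6D2F1, a hybrid mouse strain, and the sperm came from B6D2F1 males aged 8 to 12 weeks. The age of the oocyte donors was not given in the sources used here. No label ties a cell to an animal, so a p-value here measures only how far these cells differ.

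Levels are given as log2 intensity, worked back from the scores that were deposited, and replicate cells are named by their letter. The most common log2 intensity, 6.77, is taken as background, and changes of probes near it are understated. The arrays share 1 distribution, as quantile normalization leaves them, so every level is relative to the other transcripts of the same cell, and a loss shared by most transcripts cannot be seen. The arrays held 5309 to 7856 distinct intensity values. The oocytes had the 3 highest counts, at 7580 to 7856, and 6 embryo arrays lay below 6000, among them 8 h replicates c and d. The oocytes also resembled each other more, with a mean correlation across all probes of 0.934 to 0.936 against 0.83 to 0.89 among embryos of 1 time. All 8 oocyte markers were measured, and their mean ran from 13.43 to 13.81 in oocytes and from 12.36 to 13.88 in embryos. Over all embryos the median of this mean was 13.23, which is below every oocyte. At 8 h the mean ran from 12.36 to 13.34, wholly below the oocytes. The largest falls were in Zp1, which averaged 9.84 there against 11.69, and Zp3, 9.97 against 11.97. Gdf9 averaged 14.38 against 15.28 and Bmp15 13.51 against 14.12. Smaller differences were seen for Zp2 (12.42 against 12.51), Nlrp5 (12.62 against 12.88), Zar1 (14.61 against 14.93) and Oosp1 (15.75 against 15.79). Of 10 cumulus cell markers, Tnfaip6, Has2 and Inhba lay within 1 log2 unit of background on every array, while Amh averaged 12.46 in oocytes and 13.13 in embryos and Ptx3 7.74 and 8.17. The list's mean was 7.59 to 7.71 in oocytes and 7.67 to 8.21 in embryos. The mean of 7 sperm markers was 8.25 to 8.38 in oocytes and 8.45 to 9.39 in embryos. For 4 blood markers it was 8.70 to 9.96 and 8.56 to 9.99. Single markers lay far from these means. Prm1 of the sperm list averaged 11.37 in oocytes and 12.46 in embryos, and Odf1 6.95 and 7.10. Hbb-bt of the blood list averaged 13.27 and 13.80, and Ptprc 6.66 and 7.16. The part of array coarseness and of these markers in the results was not tested.

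Pgls and Pgd were the measured genes of the oxidative branch. Over the 7 times, the group means of Pgls and of the brighter Pgd probe spanned 0.72 and 0.88 log2 units. In the non-oxidative branch the brightest probes spanned 2.35 for Rpia, 2.20 for Rpe, 4.83 for Tkt and 6.16 for Taldo1. The Taldo1 span is the difference between 0 h and 8 h by which the genes were chosen. The second Rpe probe spanned 1.92, and the dim Tkt probes 0.57 and 0.55. The second Pgd probe, which was more variable between cells of 1 time, spanned 2.43. Taldo1 was lower in all 21 embryos than in every oocyte and reached background at 8 h. Tkt was high at 2 h, and 3 of the 4 cells at 10 h and all 4 at 12 h lay within 1 log2 unit of background. Rpia was lowest at 4 h and 6 h, and Rpe was highest at 12 h, but neither passed the test. Against 0 h, 0 of the 5 tested members passed an adjusted p of 0.05 (limma, Benjamini-Hochberg over all genes) at 2, 4, 6, 10 or 12 h. The share of all genes that passed was 0.108% for the 2 h embryos, 0.0666% for 4 h, 0.169% for 6 h, 0.712% for 10 h and 1.46% for 12 h embryos, so the members' count of 0 is near the background. Under an unadjusted p of 0.05 these comparisons held between 1715 and 2644 genes. Among the members these were Tkt at 2 h and 10 h, Rpia at 4 h and 6 h, and both Rpe and Tkt at 12 h. All comparisons with 0 h share the same 3 oocytes.

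Pgls encodes 6-phosphogluconolactonase, which opens the lactone made by the entry enzyme. Its log2 intensity was 8.88, 8.65 and 9.43 in the oocytes, a mean of 8.99 ± 0.40 (SD, n = 3). At 12 h it was 9.75, 9.24, 10.07 and 9.75, a mean of 9.70 ± 0.34 (SD, n = 4). The groups overlapped at each step of the order of group means, which ran 12, 8, 10, 4, 2, 6 and 0 h from high to low. Of the 21 embryos, 11 lay above every oocyte and 1 below. The change at 12 h was 0.72 log2 units (SE 0.48, 95% interval -0.28 to 1.71, limma adjusted p = 0.557).

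Pgls had the smallest spread between cells of 1 time among the members, a pooled SD of 0.49. That placed it at percentile 14.3 of the pooled SDs of 9926 genes whose mean log2 intensity was over 8, whose median was 0.89. The other members stood at percentile 46.2 for Pgd, 61.0 for Rpe, 73.5 for Rpia, 78.5 for Tkt and 78.8 for Taldo1.

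Pgd encodes 6-phosphogluconate dehydrogenase, which makes the second NADPH of the oxidative branch together with ribulose 5-phosphate. Its brighter probe read 11.49, 10.72 and 12.19 in the oocytes. The lowest of the 21 embryos was 9.65, the median 11.46 and the highest 13.08. Group means ran only from 10.94 at 4 h to 11.82 at 10 h, and neighbours in that order overlapped throughout. At 12 h the change from the oocytes was 0.00 log2 units (SE 0.64, 95% interval -1.33 to 1.33, limma adjusted p = 0.9996), which leaves room for a change of that size either way. The second Pgd probe was far more variable, from 6.68 to 13.15 over the 24 arrays with a pooled SD of 1.72, and its groups overlapped at each step as well.

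**Figure D1:**
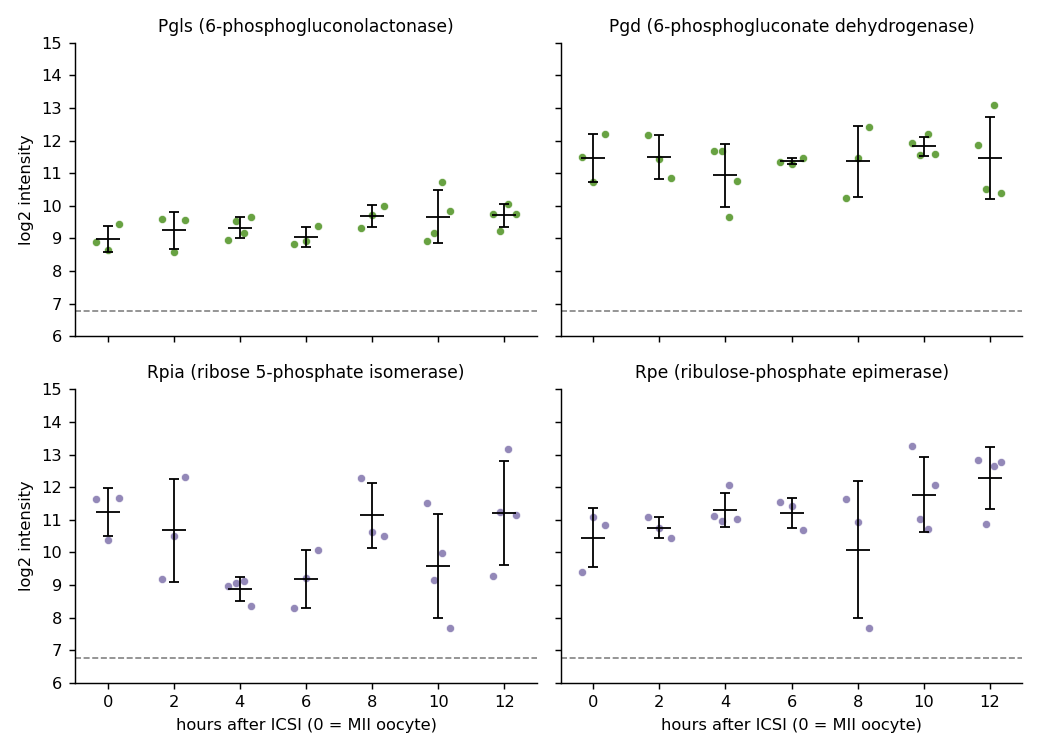
Log2 intensity (vertical axis) of the brightest probe of Pgls, Pgd, Rpia and Rpe against hours after ICSI, with oocytes at 0 h. Each point is 1 cell, black bars are group means ± SD, and the dashed line is the background level of 6.77. Pgls runs from 8.58 to 10.73 over the 24 cells and Pgd from 9.65 to 13.08, the 4 Rpia values at 4 h all lie below the oocytes, and 3 of the 4 Rpe values at 12 h lie above them.

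Rpia encodes ribose 5-phosphate isomerase, which turns ribulose 5-phosphate into ribose 5-phosphate. It read 11.63, 10.37 and 11.67 in the oocytes, a mean of 11.22 ± 0.74 (SD, n = 3). At 4 h it read 8.97, 9.05, 9.14 and 8.35, and at 6 h 8.29, 9.20 and 10.06. Both times lay wholly below the oocytes. Among all genes, 5.79% lay wholly below the oocytes at 4 h and 9.38% at 6 h.

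The Rpia change was -2.35 log2 units at 4 h (SE 0.89, 95% interval -4.21 to -0.50, limma adjusted p = 0.400). At 6 h it was -2.04 log2 units (SE 0.95, 95% interval -4.02 to -0.06, limma adjusted p = 0.552). Neither passed the test. At 8 h the cells read 12.28, 10.62 and 10.50, with replicate a above every oocyte and the others within the range of the oocytes. The 10 h and 12 h cells were spread widely, from 7.69 to 11.53 and from 9.28 to 13.17.

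Rpe encodes ribulose-phosphate 3-epimerase, which makes xylulose 5-phosphate, the 2-carbon donor used by transketolase. Its brighter probe read 9.41, 11.09 and 10.83 in the oocytes. At 12 h it read 12.82, 10.87, 12.64 and 12.78, so 3 of the 4 cells lay above every oocyte and replicate b did not. The change was 1.83 log2 units (SE 0.77, 95% interval 0.24 to 3.43, limma adjusted p = 0.280), which did not pass. At 8 h, replicate d stood at 7.69 while replicates a and c stood at 11.62 and 10.93. The second Rpe probe went the other way at 12 h, by -0.82 log2 units (SE 0.96), with cells from 6.93 to 11.02. The 2 probes of Rpe therefore do not give 1 direction for the gene.

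Tkt encodes transketolase, which moves 2-carbon units between sugar phosphates and uses thiamine pyrophosphate. Its brightest probe read 9.85, 10.76 and 8.62 in the oocytes, a mean of 9.74 ± 1.07 (SD, n = 3). At 2 h it read 12.43, 11.57 and 12.73, and every one of these cells was above every oocyte. At 4 h it read 8.56, 6.97, 9.36 and 7.58, so that the 2 h and 4 h cells did not overlap. The share of all genes without overlap between 2 h and 4 h was not counted, so this is a description only.

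The 6 h and 8 h cells were scattered, with 11.28, 7.05 and 9.48 at 6 h and 10.85, 6.72 and 8.08 at 8 h. At 10 h Tkt read 7.23, 6.76, 6.92 and 9.23. At 12 h it read 7.45, 7.16, 7.59 and 7.46, within 1 log2 unit of background in all 4 cells and below every oocyte. The order of group means was 2, 0, 6, 8, 4, 10 and 12 h, and in it only 2 h and 0 h did not overlap.

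Against the oocytes, Tkt was higher at 2 h by 2.50 log2 units (SE 0.998, 95% interval 0.43 to 4.57, limma adjusted p = 0.414), which did not pass. At 12 h it differed by -2.33 log2 units (SE 0.93, 95% interval -4.27 to -0.39, limma adjusted p = 0.253), which did not pass either. Of all genes, 8.22% lay wholly above the oocytes at 2 h and 7.23% wholly below them at 12 h. Of the 6 members, Tkt alone lay wholly above at 2 h, and Tkt and Taldo1 lay wholly below at 12 h.

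The other Tkt probes were dim, one from 6.68 to 7.88 with 2 of the 24 cells more than 1 log2 unit above background, and the other from 6.37 to 8.12 with 1 such cell. Neither rose at 2 h: their changes from the oocytes were -0.47 (SE 0.28) and 0.06 (SE 0.30) log2 units. The Tkt pattern therefore rests on 1 probe of 3.

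**Figure D2:**
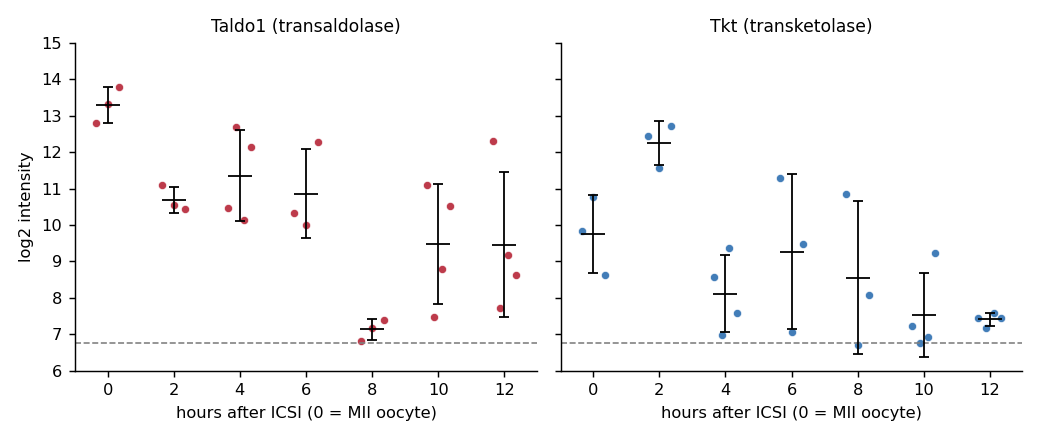
Log2 intensity (vertical axis) of Taldo1 and of the brightest Tkt probe against hours after ICSI, with oocytes at 0 h. Each point is 1 cell, black bars are group means ± SD, and the dashed line is the background level of 6.77. The 21 Taldo1 embryo values lie below the 3 oocytes with the 8 h cells at 6.82 to 7.41, and the 3 Tkt values at 2 h lie above those of the oocytes and of 4 h.

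Taldo1 encodes transaldolase, which moves 3-carbon units and with transketolase links the pathway back to glycolysis. It was bright in the oocytes, at 12.79, 13.31 and 13.78, a mean of 13.29 ± 0.49 (SD, n = 3). It read 11.10, 10.54 and 10.43 at 2 h, and 10.46, 12.67, 10.14 and 12.13 at 4 h. All of these cells were already below every oocyte, with 4 h replicate b nearest to them. Of all genes, 9.9% lay wholly below the oocytes at 2 h and 5.79% at 4 h.

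At 6 h Taldo1 read 10.32, 10.00 and 12.27, with replicate b below every cell at 2 h and 4 h and the others within their range. At 8 h it read 6.82, 7.18 and 7.41, a mean of 7.13 ± 0.30 (SD, n = 3), within 1 log2 unit of background in each cell. At 10 h it read 11.09, 7.49, 8.79 and 10.51, and at 12 h 12.30, 7.73, 9.18 and 8.61. Every 10 h and 12 h cell was above every 8 h cell, though only narrowly so for 10 h replicate b, and the 8 h cells overlapped with no other time. The share of all genes for which this holds was not counted.

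The difference at 8 h, by which the genes were chosen, was -6.16 log2 units. The 8 h cells lay near a background that was not subtracted, and the additive constant of the recovered scale is not fixed, so no fold is given. Of all genes, 0.896% passed the test at 8 h, a share given here as background only. Of the 3 arrays at 8 h, replicates c and d were among the 6 with the fewest distinct values. Without those 6 arrays, which leaves replicate a alone at 8 h, the difference was -6.47. The mean of the oocyte markers was also lower in the 8 h cells than in every oocyte, with the largest falls in Zp1 and Zp3. This was not particular to 8 h, since the median of that mean over all embryos, 13.23, was below every oocyte as well. The part of these markers in the Taldo1 value was not tested. The differences from the oocytes at the other times were -2.60 log2 units for 2 h, -1.94 for 4 h, -2.43 for 6 h, -3.82 for 10 h and -3.84 for 12 h. The order of Taldo1 group means was 0, 4, 6, 2, 10, 12 and 8 h, in which 0 h did not overlap with 4 h, nor 12 h with 8 h.

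Of all genes, 0.579% lay below every oocyte in all 21 embryos, and Taldo1 was 1 of these. Since the choice of the genes used the oocytes, this share is background and supports nothing. At 8 h, the other members differed from the oocytes by 0.69 log2 units for Pgls, -0.10 for Pgd, -0.09 for Rpia, -0.36 for Rpe and -1.19 for Tkt on their brightest probes, and each overlapped with the oocytes. The second Pgd probe differed by -2.43 and the second Rpe probe by -0.61. These values depended on the arrays used: with replicate a alone at 8 h, they were 1.11 for Tkt, 1.05 for Rpia, 1.18 for Rpe and -1.23 for Pgd.

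Late embryos (the mean of 10 h and 12 h, 8 cells) were set against early ones (the mean of 2 h and 4 h, 7 cells). The change itself used neither the 0 h nor the 8 h arrays, but its spread was estimated from all 24 arrays. Of the 6 members, 1 passed, which was Tkt, against 0.763% of all genes. Tkt ran from 6.97 to 12.73 with a median of 9.36 in early cells, and from 6.76 to 9.23 with a median of 7.34 in late cells, so the ranges overlapped. It fell by 2.71 log2 units (SE 0.64, 95% interval -4.03 to -1.39, limma adjusted p = 0.0454). As for Taldo1, no fold is given, since most late cells lay near the background that was not subtracted. The high values in the early cells were the 3 at 2 h, and the 4 h mean of 8.12 was much closer to the late means of 7.54 and 7.41.

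The Tkt call was marginal. It was lost in 18 of 24 alternatives, among them 13 of the 15 that left out 1 array, with adjusted p from 0.0209 to 0.164 over the alternatives. Among the single arrays, only leaving out 4 h replicate b or 10 h replicate d kept it. The direction was downward in each alternative, and with the mean of its 3 probes the change was -0.93 log2 units. The dim Tkt probes by themselves changed by 0.23 (SE 0.18) and -0.31 (SE 0.19) log2 units, so they differed in sign.

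Taldo1 ran from 10.14 to 12.67 in early cells and from 7.49 to 12.30 in late cells. Its change was -1.56 log2 units (SE 0.64, 95% interval -2.89 to -0.23, limma adjusted p = 0.315), which did not pass in this comparison or in any of its 24 alternatives, with adjusted p from 0.0951 to 0.546. The other 4 members had positive values, none of which passed. They were 0.40 for Pgls (95% interval -0.28 to 1.07, limma adjusted p = 0.667) and 0.43 for Pgd (95% interval -0.48 to 1.33, limma adjusted p = 0.752). For Rpia the value was 0.62 (95% interval -0.64 to 1.88, limma adjusted p = 0.739), and for Rpe it was 0.997 (95% interval -0.09 to 2.08, limma adjusted p = 0.453). The second Rpe probe again had the opposite sign, at -0.87 log2 units (SE 0.66). The median change over the 6 members was 0.41, against 0.03 over all genes.

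**Figure D3:**
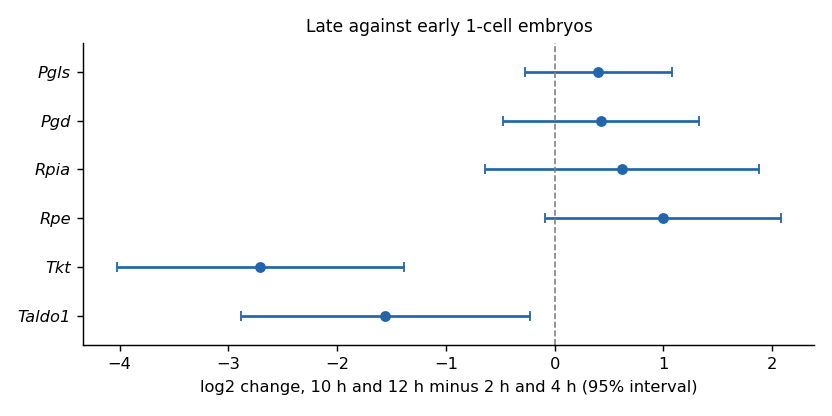
Log2 change from early (2 h and 4 h) to late (10 h and 12 h) embryos for the brightest probe of each of the 6 members on the horizontal axis, with bars for the 95% interval of the limma fit. The Tkt interval, -4.03 to -1.39, and the Taldo1 interval, -2.89 to -0.23, lie below 0 (Tkt alone passed after adjustment over all genes), and the other 4 intervals include 0.

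A moderated F-test asked whether a gene differed in any way among 2, 4, 6, 10 and 12 h. Here too the spread was estimated from all 24 arrays. Again 1 of 6 members passed, Tkt, with F = 8.71 and a limma adjusted p of 0.0449, against 0.604% of all genes. This call was lost in 19 of 27 alternatives, 14 of them among the 18 that left out 1 array. Among the single arrays, the call was kept when 4 h replicate c, 6 h replicate a, 6 h replicate b or 10 h replicate d was left out. Taldo1 had a limma adjusted p of 0.534 and Rpia of 0.405. With each of the 10 member probes tested by itself over all 41174 probes, the brightest Tkt probe passed the F-test (limma adjusted p = 0.0487), against 0.483% of all probes. In the late against early comparison it did not (limma adjusted p = 0.0572), where 0.515% of all probes passed.

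Genes with sequences like those of the members were described with them. G6pd2, an autosomal relative of G6pdx known in mouse for expression in the testis, read 13.08, 13.12 and 12.81 in the oocytes. In 20 of the 21 embryos it lay between 12.28 and 14.57, and 12 h replicate a stood alone at 7.95. Whether its probe also reads G6pdx transcripts was not tested. Tktl1, a relative of transketolase, was near background at 6.55, 6.74 and 6.78 in the oocytes, and the median of the 21 embryos was 7.17. All 21 embryos lay above every oocyte for Tktl1, as they did for 0.543% of all genes, but most stayed near background. Only 4 of the 24 cells stood more than 1 log2 unit above it. The highest Tktl1 cells were 4 h replicate d at 11.41 and 12 h replicate d at 10.41. Tktl2, another relative of transketolase, did not exceed 8.29 on the probe with the higher mean, and its other probe reached 9.02 in 4 h replicate d.

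H6pd encodes hexose-6-phosphate dehydrogenase, which runs the first steps of the oxidative branch inside the endoplasmic reticulum. It read 11.53, 9.12 and 10.80 in the oocytes and 7.54, 6.79, 7.19 and 7.15 at 10 h, with no overlap. Of all genes, 7.12% lay wholly below the oocytes at 10 h. H6pd fell by 3.32 log2 units at 10 h (SE 0.73, 95% interval -4.83 to -1.80, limma adjusted p = 0.0347). At 12 h it differed by -2.80 log2 units (limma adjusted p = 0.0586), which did not pass. The 10 h call was lost when any of 6 of the 7 single arrays of those groups was left out and held only without 0 h replicate c, with adjusted p up to 0.216. A second H6pd probe read 10.91, 7.83 and 8.34 in the oocytes and 7.91 to 8.17 at 10 h, and its change of -0.96 log2 units (SE 0.56) did not pass.

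H6pd was 1 of 14 genes beside the core pathway, which handle ribose, ribose phosphate and related sugars, and all 14 were measured. It was the only one of them that passed in any of the 7 tested comparisons, and at 10 h 0.712% of all genes passed. Their median change at 10 h was -0.14 log2 units, against 0.06 over all genes.

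Among 13 genes of other NADPH-making enzymes, such as the malic enzymes and the NADP-dependent isocitrate dehydrogenases, 0 passed in any tested comparison (limma), and 1 to 4 had an unadjusted p under 0.05. Over all genes the unadjusted share in these comparisons was 8.78% to 13.5%. Their median change at 12 h was 0.21 log2 units against 0.08 over all genes. Of 8 listed reductases that consume NADPH, 6 were measured and 1 passed, Txnrd3, a thioredoxin reductase that also acts on glutathione, at 12 h, where 1.46% of all genes passed. Txnrd3 read 13.24, 11.59 and 12.42 in the oocytes and 8.80, 9.99, 9.28 and 9.79 at 12 h. All 21 embryos lay below every oocyte, as they did for 0.579% of all genes. Txnrd3 fell by 2.96 log2 units at 12 h (SE 0.69, 95% interval -4.39 to -1.52, limma adjusted p = 0.0318). That call was lost when 0 h replicate a or d, or 12 h replicate a or c, was left out, with adjusted p up to 0.193. The median change of the 6 reductases at 12 h was -0.83 log2 units, with 3 positive and 3 negative.

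Of 33 glycolytic genes, 28 were measured and 0 passed in any tested comparison (limma), while 1 to 6 had an unadjusted p under 0.05, against the same shares of all genes. Their changes at 12 h ran from -1.73 to 1.97 log2 units with a median of 0.26, against 0.08 over all genes. Of 16 genes of purine and pyrimidine synthesis, which draws on ribose 5-phosphate, 15 were measured and 1 passed, Adsl, which encodes adenylosuccinate lyase of purine synthesis. Adsl was close to background in the oocytes, at 6.95, 6.86 and 6.94, and read 10.59, 10.78 and 12.20 at 2 h. It returned to 6.70 to 6.88 in the 4 cells at 4 h and read 8.94, 8.91 and 8.33 at 6 h. At 8 h it read 10.52, 7.64 and 6.68, at 10 h 6.66 to 7.23, and at 12 h 8.85, 8.36, 10.46 and 6.81.

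Adsl rose by 4.27 log2 units at 2 h (SE 0.77, 95% interval 2.66 to 5.88, limma adjusted p = 0.0219) and passed the F-test (limma adjusted p = 0.0141), where 0.108% and 0.604% of all genes passed. The 2 h call held only without 2 h replicate a among the single arrays left out, with adjusted p up to 0.0867 without any of the others. It was also lost in a fit of the 0 h and 2 h cells alone (adjusted p = 0.169) and without the 6 arrays with the fewest distinct values (adjusted p = 0.0922). As with the brightest Tkt probe, the Adsl probe was higher in all 3 cells at 2 h than in every oocyte and every 4 h cell. Of all genes, 8.22% lay wholly above the oocytes at 2 h. The share that also lay above every 4 h cell was not counted.

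**Figure D4:**
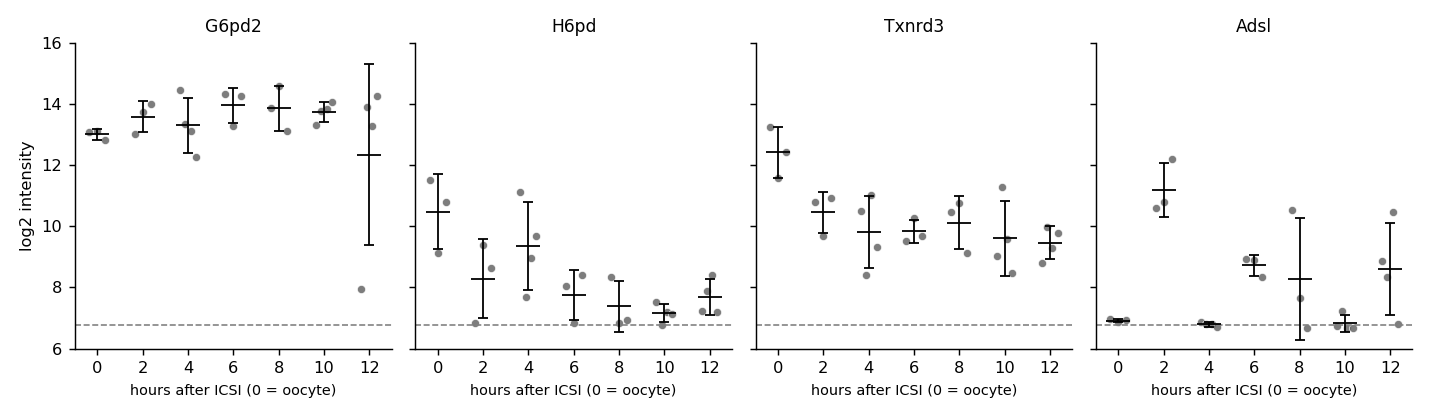
Log2 intensity (vertical axis) of G6pd2, H6pd, Txnrd3 and Adsl against hours after ICSI, with oocytes at 0 h, for the brightest probe of each gene. Each point is 1 cell, black bars are group means ± SD, and the dashed line is the background level of 6.77. G6pd2 has 1 low cell at 12 h. The 4 H6pd values at 10 h and all 21 Txnrd3 embryo values lie below the oocytes. Of the Adsl values, 10 stand more than 1 log2 unit above background, among them the 3 at 2 h.

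The genes whose log2 intensity followed Taldo1 most closely over the 24 arrays were Lrrc17 (Pearson r = 0.759), Klhl9 (r = 0.756) and Retreg3 (r = 0.755), among 9925 genes with a mean over 8. These correlations describe cells that share the time course and the normalization. Lrrc17 read 14.15, 14.27 and 14.06 in the oocytes and 12.51, 10.87 and 11.29 at 8 h, and its lowest group was 12 h, not 8 h. The likeness includes the 0 h and 8 h cells by which Taldo1 was chosen. Retreg3 read 7.58, 6.96 and 7.14 at 8 h against 10.71, 11.22 and 12.68 in the oocytes. Its second probe read 7.75, 7.39 and 7.08 at 8 h against 11.53, 11.27 and 12.28. Klhl9 covered a narrower range, from 9.95 to 13.48 over the 24 cells. The second Klhl9 probe read 10.23, 11.87 and 8.37 at 8 h against 10.38, 11.16 and 10.65 in the oocytes. On that probe 2 of the 8 h cells lay below every oocyte and 1 above, so the likeness of Klhl9 rests on its brighter probe.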

How the data were processed

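Expression microarrays of 24 single cells were used. Per the labels' protocols, mRNA was captured on oligo-dT beads, copied to cDNA, tailed and amplified. The protocol gives digoxigenin to the sample and biotin to a reference, but the label field names biotin, so the channel behind the values is unknown. The deposited values are scores that the authors made with limma, per the submitters' processing notes, with quantile-like equal distributions (column medians 1.16 to 1.18).

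The planned test needed log2 values, so the scores were turned to log2 intensity first. Of 248 candidate midpoints of tied probes, 228 lay within 0.05 of the fitted curve for a log that had itself been logged. Only these were kept in the fit, and the largest residual among them was 0.0232. An additive and a multiplicative constant stay unknown, and the recovered range of 51.3 to 59170 rests on a scanner-like scale. Python 3.11.15 was used.

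A gene was represented by its probe with the highest mean, and levels of different probes were not compared. One limma fit (limma 3.58.1, R 4.3.3, lmFit, then eBayes with a mean-variance trend) took in all 24 arrays as 7 group means, with Benjamini-Hochberg adjustment over 19532 genes at 0.05. The script was tested on simulated data. The platform annotation gave 1 symbol for 32664 probes, several for 45 and none for 8465. Coordinates are not printed because the genome build behind the probes is not stated. No 2 arrays were copies, the smallest mean absolute difference being 0.46 log2 units.

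The members and lists were chosen with earlier results of these data known. Named genes were the members with all probes, list genes that passed in a tested comparison, the 3 genes most correlated with Taldo1, and genes of like sequence. Group letters came from the sample titles. Alternatives changed the scale, the trend, array weights, the groups in the fit, the filter on dim genes, the choice of probes and the replicate block, and left out single arrays.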

Additional observations from a re-analysis of the deposited data

Results flagged for a closer look

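Within groups of 4 cells, the highest or lowest cell was set against the other 3 with Dixon's test at the 95% level for all 23 probes of the genes named above. Of 69 groups, 7 had such a cell, and chance gives about 1 in 20.

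Rpe stood out at 2 times: 4 h replicate c read 12.07 while the others read 10.96 to 11.12, and 12 h replicate b read 10.87 while the others read 12.64 to 12.82. The G6pd2 value of 7.95 in 12 h replicate a lay far below the 13.29 to 14.24 of the other cells. Tktl1 read 11.41 in 4 h replicate d against 7.07 to 7.46, and the dimmer Tktl2 probe read 8.84 in 12 h replicate b against 6.58 to 6.87. Adsl read 7.23 in 10 h replicate b against 6.66 to 6.75, a gap within 1 log2 unit of background. Lrrc17 read 11.81 in 4 h replicate c against 13.33 to 13.46.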

How the results depend on the processing

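The count of 0 members passing against 0 h at 2, 4, 6, 10 and 12 h was 0 in every alternative run. The late against early count of 1 member (Tkt) became 0 on the deposited scores, with array weights, with the mean of all probes, with every probe tested by itself and, in an alternative chosen after seeing the data, without the 6 arrays with the fewest distinct values. The count in the F-test, also 1, became 0 on the deposited scores, with array weights, in a fit of the compared groups alone, with the mean of all probes and without those 6 arrays. Leaving out 1 array gave 0 to 1 in both. The Taldo1 difference at 8 h was -2.77 on the deposited scores, which is in score units, and ran from -6.41 to -5.91 when 1 array was left out. The 1 called pair of a member probe and a comparison became 2 with the upper 60% of probes and 0 without the mean-variance trend. Why calls were lost was not tested.

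With the replicate letter as a block, the Tkt change from early to late was -2.73 log2 units (limma adjusted p = 0.0332), 1 member passed in each of the late against early comparison and the F-test, and 2 pairs of a member probe and a comparison passed. The H6pd, Txnrd3 and Adsl calls were lost under the replicate block. In a fit of the compared groups alone and without the 6 arrays, adjusted p was 0.0531 and 0.126 for H6pd, 0.0639 and 0.0506 for Txnrd3, and 0.169 and 0.0922 for Adsl, and on the deposited scores 0.0533 for Txnrd3. Over 62 pairs of same-letter arrays the deviations from group means correlated at 0.0206 on average (-0.126 to 0.176, 6 of them over 0.1). Over 184 pairs of arrays with different letters the average was -0.00685 (-0.244 to 0.185, 9 of them over 0.1). No label ties a cell to an animal, so these values do not settle whether the letters pair the cells.

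Counts over all genes ran from 0 to 64 around 21 at 2 h, 0 to 155 around 13 at 4 h, 0 to 205 around 33 at 6 h, 27 to 594 around 175 at 8 h, 24 to 902 around 139 at 10 h and 104 to 976 around 285 at 12 h. For late against early they ran from 57 to 206 around 149, and for the F-test from 46 to 172 around 118. The number of arrays and the unsubtracted background limit what can be seen near 6.77.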
